A study of Mus musculus with 19 samples.

Results

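Arterial identity genes are genes whose RNA marks arteries and arterioles within the endothelium, and 8 of them are described here in endothelial cells of lymphoid tissue: Efnb2, Sema3g, Nrp1, Unc5b, Gja4, Gja5, Bmx and Sox17. They were chosen by name, as the probe sets whose only gene symbol is one of the 8, and each had exactly 1 such probe set, so that 8 of 19938 measured genes are members. The names, and the gene lists set beside them, were chosen with earlier results of these data known. All samples were sorted endothelial cells of BALB/c mice, each an equal mix of males and females aged 6 to 8 weeks, with no treatment or mutation named in the labels. High endothelial cells (HEC), which line the venules where lymphocytes leave the blood, came from Peyer's patches (3 arrays), from mesenteric lymph nodes in 2 gates, MAdCAM1+/PNAd+ (2 arrays) and MAdCAM1+ (2 arrays), and from peripheral lymph nodes (4 arrays). Capillary endothelial cells came from Peyer's patches (3 arrays), mesenteric nodes (2 arrays) and peripheral nodes (3 arrays). MAdCAM1 is the mucosal addressin and PNAd the peripheral node addressin, both of which lymphocytes bind on high endothelium. The labels give these antibodies for the mesenteric HEC alone, name no arterial gate, and leave unsaid whether replicates are separate animals or separate sorts. The p-values therefore stand for the spread among these arrays, part or all of which could be technical.

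In mice, the endothelium of arteries and of veins is told apart by its genes from the embryo onwards. Signals of VEGF and Notch, together with transcription factors of the SoxF family, switch on an arterial programme that includes the ligand ephrin-B2 (Efnb2), while veins carry its receptor EphB4. In adult organs these genes are found in arteries and arterioles, and some of them also in capillaries at the arterial end, whereas the high endothelial venule belongs to the venous side of the bed.

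RNA was measured on 19 Affymetrix whole-transcript arrays, and each value is a log2 signal that was centred for its probe set. Differences between arrays can therefore be read, while the level of one gene cannot be set against that of another, and no gene can be called present or absent. The precision is limited by the number of arrays. The marker genes went with the labels: 8 of 9 measured high endothelial genes were higher in HEC (18.0% of all genes were), led by Madcam1 (4.95 ± 0.13, log2 difference ± SE) and Glycam1 (4.41 ± 0.29), and 9 of 9 capillary genes were lower in HEC (15.9% of all genes were). The mesenteric HEC were gated on MAdCAM1, so a high Madcam1 there is no independent check of their label. Madcam1 was also 3.50 ± 0.20 higher in mesenteric than in peripheral HEC, which the mean over tissues hides. Of 12 genes shared by all endothelium, 8 were lower in HEC, with a median difference of -0.48. Of 7 B cell genes, 6 were higher in HEC, and of 12 pericyte and smooth muscle genes, 9 were lower and 1 was higher in HEC, with the largest differences in Rgs5 (-2.71 ± 0.14) and Acta2 (-1.87 ± 0.13).

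**Figure D1:**
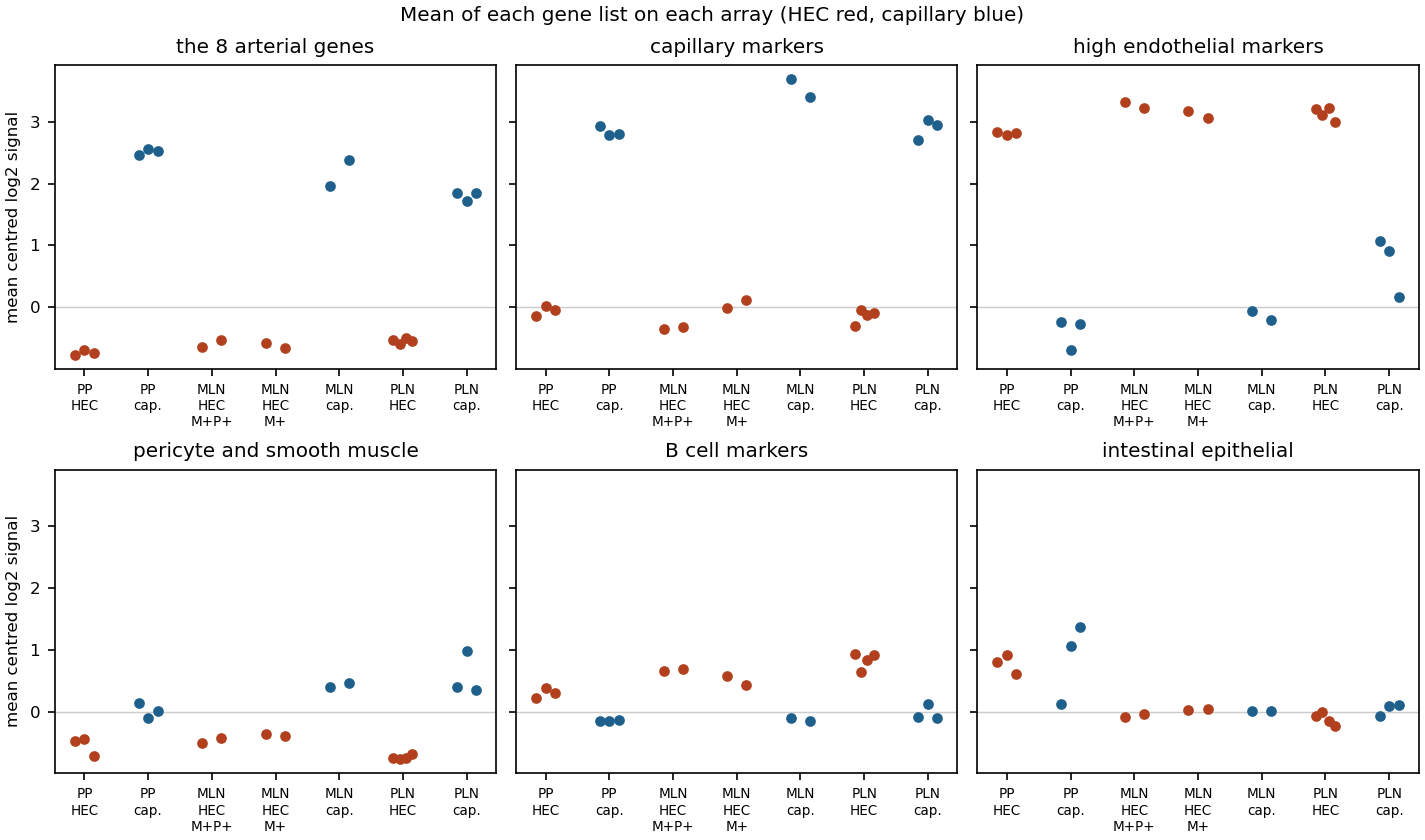
Mean centred log2 signal (vertical axis) of 6 gene lists on each of 19 arrays, by tissue and cell type (PP, Peyer's patches; MLN, mesenteric nodes; PLN, peripheral nodes; cap., capillary; M+P+, MAdCAM1+/PNAd+ gate; M+, MAdCAM1+ gate). The mean of the 8 arterial genes lay between -0.76 and -0.49 on HEC arrays and between 1.71 and 2.56 on capillary arrays, and within capillary arrays it was highest in Peyer's patches.

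The promoters of 4 members are shown because their genes differed most between tissues: Gja5 and Bmx in capillary cells, and Efnb2 and Nrp1 in HEC (values below). Each is the RefSeq sequence of build GRCm38.p6 from 250 bases before to 50 bases after the start that the promoter table uses, 5′ to 3′ on the strand of the gene, and capitals mark the letters of motifs that were found. For Gja5, Bmx and Efnb2 that start is the 5′ end of the annotated gene, whereas the window of Nrp1 lies wholly inside the annotated gene span given below, so it surrounds a start downstream of the outermost one.
Gja5, chr3:97032152-97032451, plus strand: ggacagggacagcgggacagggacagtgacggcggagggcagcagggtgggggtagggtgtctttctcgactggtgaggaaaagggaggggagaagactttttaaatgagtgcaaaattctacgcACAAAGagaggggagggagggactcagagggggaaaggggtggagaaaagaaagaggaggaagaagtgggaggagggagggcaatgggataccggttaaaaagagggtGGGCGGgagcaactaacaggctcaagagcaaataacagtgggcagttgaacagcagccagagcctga
Bmx, chrX:164258144-164258443, minus strand: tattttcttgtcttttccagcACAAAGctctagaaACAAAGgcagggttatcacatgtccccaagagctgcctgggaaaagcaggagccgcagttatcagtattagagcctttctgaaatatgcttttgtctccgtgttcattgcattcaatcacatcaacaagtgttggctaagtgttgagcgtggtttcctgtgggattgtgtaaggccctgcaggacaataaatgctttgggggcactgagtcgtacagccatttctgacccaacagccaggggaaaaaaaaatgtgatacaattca
Efnb2, chr8:8661193-8661492, minus strand: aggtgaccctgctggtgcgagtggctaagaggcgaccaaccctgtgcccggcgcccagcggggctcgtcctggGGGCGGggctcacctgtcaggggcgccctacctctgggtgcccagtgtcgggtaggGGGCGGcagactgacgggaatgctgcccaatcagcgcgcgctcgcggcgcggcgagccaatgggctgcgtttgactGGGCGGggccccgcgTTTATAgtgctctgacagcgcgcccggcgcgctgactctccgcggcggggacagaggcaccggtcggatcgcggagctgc
Nrp1, chr8:128358823-128359122, plus strand: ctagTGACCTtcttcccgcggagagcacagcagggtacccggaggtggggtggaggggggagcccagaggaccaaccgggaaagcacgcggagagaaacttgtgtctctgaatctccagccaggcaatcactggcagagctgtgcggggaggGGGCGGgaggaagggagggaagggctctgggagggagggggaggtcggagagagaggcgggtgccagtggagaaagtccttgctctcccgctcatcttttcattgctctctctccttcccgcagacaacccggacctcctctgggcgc
Of the 8 members 7 had a promoter sequence in the table used, the exception being Sox17. The 8 motifs were searched on both strands, and they were chosen with these sequences in view, so a match is a description only. The GC box GGGCGG was held by 6 of 7 members (35.7% of 32851 promoters), by all but Bmx. The SOX form ACAAAG was held by Gja5 at -125 from the start used in the table, and by Bmx, at -229 and -215 (18.7% of promoters). The nuclear receptor motif AGGTCA was held by Nrp1 at -246 from the downstream start of its window, on the opposite strand (16.3% of promoters), and TATAAA by Efnb2 at -30 on the opposite strand (13.6%). None of the 7 held the RBPJ motif GTGGGAA (6.38% of promoters), the SOX form AACAAT (10.7%), the forkhead motif GTAAACA (3.65%) or the ETS motif CCGGAAG (8.86%) in this window. No 2 of these matches overlapped. The 4 promoters differed in composition: the GC content was 72.3% for Efnb2, 64.0% for Nrp1, 55.7% for Gja5 and 44.7% for Bmx, against a median of 52.7% over all promoters, and the observed over expected ratio of CpG was 0.904 for Efnb2 and 0.268 for Bmx, against a median of 0.384.

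All 8 genes were lower in HEC than in capillary cells. Over the mean of the 3 tissues, 8 of 8 were lower by limma at an adjusted p under 0.05 (15.9% of all genes were lower), and for 8 of 8 every HEC array lay below every capillary array (4.45% of all genes). The median difference of the members was -2.97 on the log2 scale, against -0.01 over all genes. All 8 were also lower within Peyer's patches (10.6% of all genes), within mesenteric nodes (7.31%) and within peripheral nodes (11.4%), with medians of -3.48, -2.75 and -2.47. These 32 results kept their direction and their call under each of 28 alternative settings, some of which could not move them. Each member has 1 probe set, so taking the most variable probe set changed no member value. Leaving out an array of another tissue leaves the difference within a tissue as it was and changes only its SE. The array weights did not converge (below). Because the samples are bulk sorts, fewer arterial cells in one sort and less arterial RNA in each cell cannot be told apart. Pericyte and smooth muscle markers, which accompany arterioles, were lower in HEC as well, with a list mean of -0.76 to -0.36 on the 11 HEC arrays and -0.10 to 0.98 on the 8 capillary arrays, and their part in the result was not tested. The same holds for the markers of all endothelium, whose list mean was -0.25 to 0.27 on HEC arrays and 0.46 to 0.75 on capillary arrays.

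**Figure D2:**
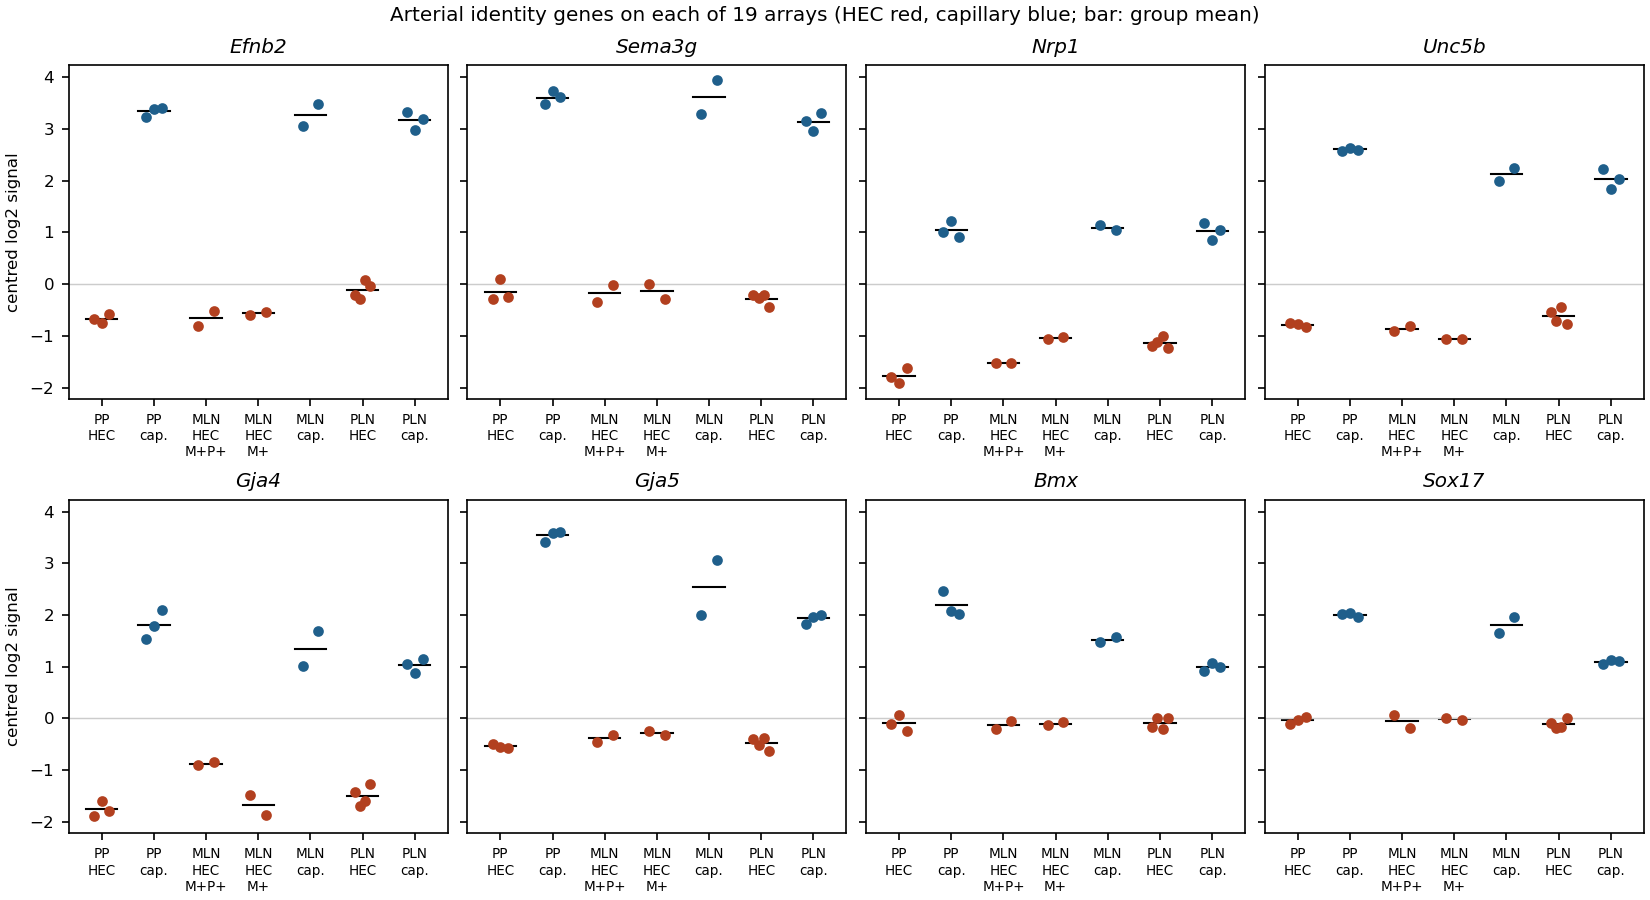
Centred log2 signal (vertical axis) of the 8 arterial genes on 19 arrays in 7 groups (abbreviations: PP, Peyer's patches; MLN, mesenteric nodes; PLN, peripheral nodes; cap., capillary; M+P+, MAdCAM1+/PNAd+ gate; M+, MAdCAM1+ gate), with a bar at each group mean. In every panel all HEC arrays lie below all capillary arrays, and the capillary values of Gja5, Bmx and Sox17 differ by tissue.

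The ligands had the largest gaps over the mean of the tissues, in mesenteric nodes and in peripheral nodes, while Gja5 had the largest in Peyer's patches. Gene positions are given on GRCm38.p6. Efnb2 (chr8:8617235-8661242), the transmembrane ligand of EphB receptors on neighbouring cells, read -0.68, -0.76 and -0.58 in Peyer's patch HEC, -0.81 and -0.52 in MAdCAM1+/PNAd+ mesenteric HEC, -0.60 and -0.53 in MAdCAM1+ mesenteric HEC, and -0.21, -0.28, 0.07 and -0.04 in peripheral HEC. In capillary cells it read 3.23, 3.39 and 3.41 in Peyer's patches, 3.06 and 3.49 in mesenteric nodes and 3.32, 2.98 and 3.20 in peripheral nodes. The 3 capillary groups overlapped, whereas all 4 peripheral HEC arrays stood above the other 7 HEC arrays. Over the tissues Efnb2 was -3.73 ± 0.07 (SE) in HEC minus capillary, 13.3-fold lower (adjusted p = 4.71e-16).

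Sema3g (chr14:31217873-31230352) encodes a secreted class 3 semaphorin that arterial endothelium makes and that signals through neuropilins and plexins. It read -0.29, 0.10 and -0.25 in Peyer's patch HEC, -0.34 and -0.01 in MAdCAM1+/PNAd+ HEC, 0.00 and -0.28 in MAdCAM1+ HEC, and -0.22, -0.27, -0.21 and -0.44 in peripheral HEC. In capillary cells it read 3.48, 3.73 and 3.61 in Peyer's patches, 3.29 and 3.94 in mesenteric nodes and 3.15, 2.96 and 3.31 in peripheral nodes. The HEC groups overlapped each other, and the Peyer's patch capillary arrays lay above the peripheral ones without passing the test (below). Its HEC minus capillary difference was -3.65 ± 0.09 (adjusted p = 4.48e-15), 12.6-fold lower.

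The receptors were low in HEC in all 3 tissues. Nrp1 (chr8:128358591-128505476) encodes neuropilin-1, a receptor of class 3 semaphorins and co-receptor of VEGF-A. It read -1.80, -1.92 and -1.62 in Peyer's patch HEC, -1.52 and -1.52 in MAdCAM1+/PNAd+ HEC, -1.07 and -1.03 in MAdCAM1+ HEC, and -1.20, -1.12, -1.0 and -1.23 in peripheral HEC. In capillary cells it read 1.01, 1.22 and 0.92 in Peyer's patches, 1.14 and 1.04 in mesenteric nodes and 1.18, 0.86 and 1.04 in peripheral nodes. The 3 capillary groups overlapped, and the Peyer's patch HEC arrays were the 3 lowest of all 19. The difference over tissues was -2.46 ± 0.06 (adjusted p = 4.52e-15), 5.49-fold lower.

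Unc5b (chr10:60762594-60831581) encodes a netrin receptor found in arterial endothelium and at the tips of growing vessels. Its HEC values were -0.76, -0.78 and -0.83 in Peyer's patches, -0.90 and -0.82 in the MAdCAM1+/PNAd+ gate, -1.07 and -1.07 in the MAdCAM1+ gate and -0.53, -0.71, -0.44 and -0.78 in peripheral nodes. Its capillary values were 2.58, 2.64 and 2.60 in Peyer's patches, 2.00 and 2.25 in mesenteric nodes and 2.23, 1.84 and 2.03 in peripheral nodes. The Peyer's patch capillary arrays were the 3 highest, and the mesenteric and peripheral capillary arrays overlapped. Unc5b was -3.05 ± 0.06 over tissues (adjusted p = 4.71e-16), 8.26-fold lower in HEC.

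The connexin genes Gja4 (chr4:127311420-127314039) and Gja5 (chr3:97032402-97053634) encode gap junction proteins through which endothelial cells of arteries and arterioles are coupled. Gja4 read -1.88, -1.59 and -1.79 in Peyer's patch HEC, -0.91 and -0.84 in MAdCAM1+/PNAd+ HEC, -1.48 and -1.87 in MAdCAM1+ HEC, and -1.43, -1.69, -1.59 and -1.27 in peripheral HEC. In capillary cells it read 1.53, 1.78 and 2.10 in Peyer's patches, 1.02 and 1.68 in mesenteric nodes and 1.05, 0.88 and 1.15 in peripheral nodes. The MAdCAM1+/PNAd+ arrays were the 2 highest HEC arrays, and the Peyer's patch capillary arrays lay above the peripheral ones. The HEC minus capillary difference was -2.90 ± 0.10 (adjusted p = 2.57e-13), 7.47-fold lower.

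Gja5 was nearly level across HEC, with a lowest value of -0.63, a median of -0.45 and a highest value of -0.24 on the 11 arrays. In capillary cells it read 3.42, 3.59 and 3.61 in Peyer's patches, 2.00 and 3.07 in mesenteric nodes and 1.83, 1.97 and 2.00 in peripheral nodes. It had the widest spread of the members among capillary arrays, and the 2 mesenteric capillary arrays differed by more than those of any other group. Its HEC minus capillary difference over tissues was -3.12 ± 0.10 (adjusted p = 1.39e-13), 8.70-fold lower.

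Bmx (chrX:164192842-164258193), a tyrosine kinase of the Tec family that marks arterial endothelium, lay between -0.25 and 0.07 on the 11 HEC arrays, with a median of -0.11. Its capillary values were 2.47, 2.07 and 2.01 in Peyer's patches, 1.47 and 1.57 in mesenteric nodes and 0.92, 1.07 and 0.99 in peripheral nodes, and these 3 groups did not overlap. The difference over tissues was -1.67 ± 0.07 (adjusted p = 2.41e-12), 3.18-fold lower in HEC. Sox17 (chr1:4490928-4497426), the SoxF transcription factor that arterial identity needs in mice, lay between -0.19 and 0.07 on the HEC arrays, with a median of -0.03. Its capillary values were 2.02, 2.03 and 1.97 in Peyer's patches, 1.65 and 1.97 in mesenteric nodes and 1.05, 1.13 and 1.10 in peripheral nodes, so that the peripheral arrays stood apart below the others. Sox17 was -1.70 ± 0.05 over tissues (adjusted p = 9.75e-14), 3.24-fold lower in HEC. The HEC values of Gja5, Sema3g, Bmx and Sox17 were the most even, with SDs of 0.12, 0.16, 0.10 and 0.09 over the 11 arrays, and whether they lie at the background of the array was not tested.

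**Figure D3:**
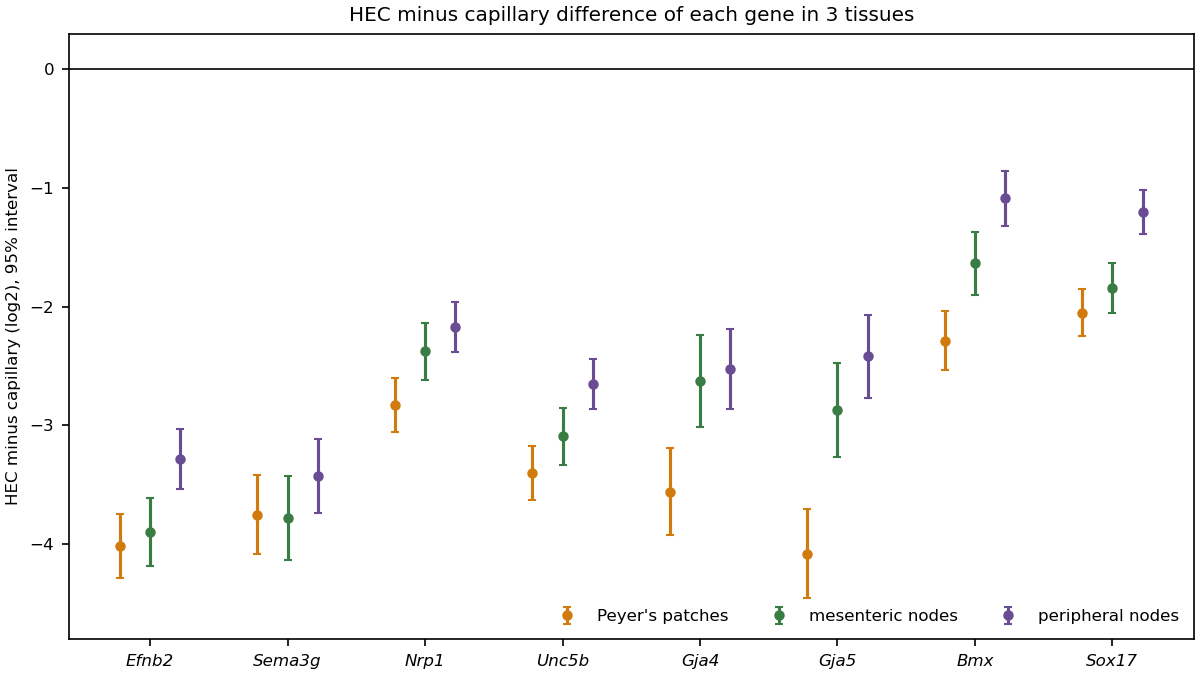
HEC minus capillary difference on the log2 scale (vertical axis), with its 95% interval from limma, for each gene in Peyer's patches, mesenteric nodes and peripheral nodes. All 24 intervals lie below 0, and Gja5 has the most negative value, -4.08 in Peyer's patches.

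The gap between HEC and capillary cells was wider in Peyer's patches than in peripheral nodes for 7 of 8 members (2.37% of all genes had a more negative and 1.69% a less negative difference, shares that depend on single arrays). This was tested as the HEC minus capillary difference in Peyer's patches minus that in peripheral nodes. It was -1.66 ± 0.24 for Gja5 (adjusted p = 0.000515), -1.20 ± 0.16 for Bmx (0.000251) and -0.85 ± 0.13 for Sox17 (0.00074). In peripheral nodes alone the gap was -2.42 for Gja5, -1.09 for Bmx and -1.20 for Sox17, and in Peyer's patches it was -4.08, -2.29 and -2.05. The other members that passed were Gja4 (-1.03 ± 0.24, adjusted p = 0.0183), Unc5b (-0.75 ± 0.15, 0.00641), Efnb2 (-0.73 ± 0.17, 0.0232) and Nrp1 (-0.66 ± 0.15, 0.0151). Sema3g gave -0.33 ± 0.22 (adjusted p = 0.412), with a 95% interval of -0.78 to 0.13. The median of the members was -0.80, against 0.04 over all genes. The calls for Gja5, Bmx and Sox17 held under all 28 alternatives, whereas quantile normalization applied again left 3 of the 7 calls. Leaving out peripheral capillary arrays 1 and 2 also ended calls, in a fit with 1 array in that group. Leaving out 1 array ended the call of Gja4 without peripheral capillary array 2 (adjusted p = 0.0578), Peyer's patch capillary array 3 (0.053) or Peyer's patch HEC array 1 (0.0587), of Nrp1 without Peyer's patch capillary array 2 (0.0542), and of Efnb2 without any of 6 arrays (peripheral capillary 2, peripheral HEC 3, Peyer's patch capillary 2 and 3, Peyer's patch HEC 1 and 2).

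The members fell into 2 kinds by the cell type in which the tissues differed, which is read from comparisons that share the same arrays. In capillary cells, 5 of 8 were higher in Peyer's patches than in peripheral nodes (2.40% of all genes were higher): Gja5 by 1.60 ± 0.18 (adjusted p = 1.85e-05), Bmx by 1.19 ± 0.12 (5.04e-06), Sox17 by 0.92 ± 0.09 (8.17e-06), Gja4 by 0.78 ± 0.17 (0.0109) and Unc5b by 0.57 ± 0.11 (0.00295). In HEC none of these 5 passed the test, with differences of -0.06, -0.003, 0.07, -0.26 and -0.18 in the same order. In HEC, 2 of 8 members were lower in Peyer's patches than in peripheral nodes (4.49% of all genes were lower). Nrp1 was -0.64 ± 0.10 (adjusted p = 0.000539) and Efnb2 -0.56 ± 0.12 (0.00803) in HEC, and in capillary cells they were 0.02 ± 0.11 (adjusted p = 0.984) and 0.18 ± 0.13 (0.7). Sema3g passed in neither cell type, at 0.13 ± 0.15 in HEC (adjusted p = 0.575) and 0.46 ± 0.16 in capillary cells (0.138). The median over members was 0.67 in capillary cells and -0.12 in HEC, against -0.02 and 0.03 over all genes. The genes whose promoters are printed above are the 2 with the largest differences in capillary cells and the 2 that passed in HEC.

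**Figure D4:**
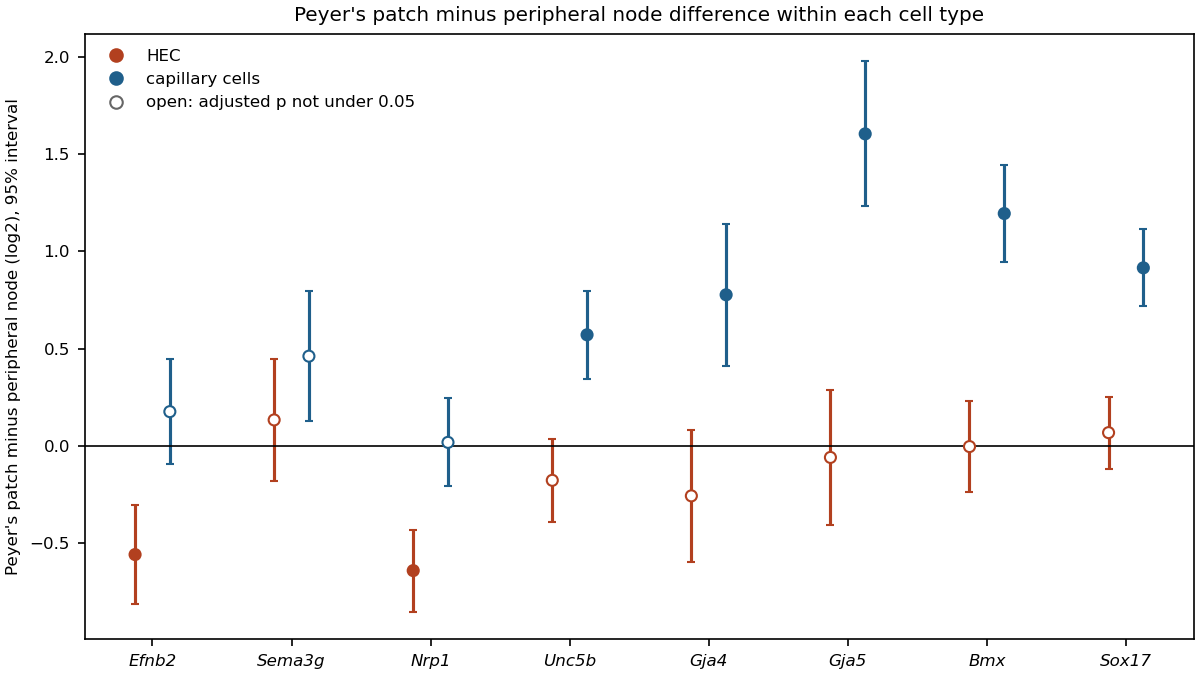
Peyer's patch minus peripheral node difference on the log2 scale (vertical axis) with its 95% interval from limma, for each gene in HEC and in capillary cells. Filled points had an adjusted p under 0.05: Unc5b, Gja4, Gja5, Bmx and Sox17 in capillary cells, and Efnb2 and Nrp1 in HEC.

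Other cell types moved with this contrast to different degrees. The capillary marker list had a similar mean in Peyer's patch capillary cells (2.79 to 2.93) and peripheral capillary cells (2.70 to 3.03). Of 12 pericyte and smooth muscle genes, 4 were lower (2.24% of all genes) and 1 was higher (2.40%) in Peyer's patch capillary cells, with a median of -0.61. Acta2 was -1.39 ± 0.23 and Myh11 -1.15 ± 0.16. Of 9 high endothelial genes, 6 were lower and 1 was higher there, with a list mean of -0.68 to -0.23 in Peyer's patch capillary cells and 0.16 to 1.07 in peripheral capillary cells. On peripheral capillary arrays 1, 2 and 3 that mean was 1.07, 0.91 and 0.16. Peripheral capillary array 2 also had the highest mean of the 3 for pericyte and smooth muscle genes (0.98), macrophage and dendritic genes (0.90), lymphatic endothelial genes (1.00) and fibroblast and reticular genes (0.46). The part of these cells in the result was not tested beyond leaving out arrays 1 and 2. That left peripheral capillary array 3 alone in its group, so only sizes are given. In Peyer's patch against peripheral capillary cells Gja5 was then 1.54, Bmx 1.20 and Sox17 0.91. Gja4 was 0.65 and Unc5b 0.57, with no call for these 2. Of 8 intestinal epithelial genes, 2 were higher in Peyer's patch capillary cells (2.40% of all genes) and 6 in Peyer's patch HEC (2.16%). The list means were 0.13 to 1.37 on Peyer's patch capillary arrays and 0.61 to 0.91 on Peyer's patch HEC arrays. On Peyer's patch capillary arrays 1, 2 and 3 the epithelial mean was 0.13, 1.07 and 1.37. On the same arrays Gja5 was 3.42, 3.59 and 3.61, Gja4 1.53, 1.78 and 2.10, and Unc5b 2.58, 2.64 and 2.60. Bmx was 2.47, 2.07 and 2.01 there, and Sox17 2.02, 2.03 and 1.97. The part of epithelial cells in these values was not tested.

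Lists of other cells also moved with the HEC contrast in which Efnb2 and Nrp1 were lower. The B cell list mean was 0.22 to 0.38 in Peyer's patch HEC and 0.64 to 0.93 in peripheral HEC, and 3 of 7 genes were lower in Peyer's patch HEC (4.49% of all genes). The T cell list mean was -0.08 to 0.18 in Peyer's patch HEC and 0.30 to 0.42 in peripheral HEC, with 3 of 7 genes lower. High endothelial genes had a list mean of 2.79 to 2.83 in Peyer's patch HEC and 3.00 to 3.22 in peripheral HEC, with 3 of 9 lower and 1 higher (2.16% of all genes were higher). The part of these cells in the HEC result was not tested.

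Nrp1 in HEC depended on the normalization: its difference between Peyer's patches and peripheral nodes was -0.29 (adjusted p = 0.133) after quantile normalization was applied again, while that of Efnb2 was called under all 28 alternatives. In capillary cells, Unc5b lost its call after quantile normalization was applied again (0.47, adjusted p = 0.073). Gja4 lost its call there without peripheral capillary array 2 (0.70, adjusted p = 0.0644) or Peyer's patch capillary array 3 (0.63, 0.0773).

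Mesenteric capillary cells had a mean between those of Peyer's patch and peripheral capillary cells for 6 members, all but Sema3g and Nrp1. In capillary cells, Sox17 was 0.71 ± 0.10 higher in mesenteric than in peripheral nodes (adjusted p = 0.00493) and was the only member called of 8 (0.120% of all genes were higher). Without mesenteric capillary array 2, which leaves 1 array in that group, it was 0.55 with no call. Gja5 was 1.00 ± 0.20 (adjusted p = 0.00939) and Bmx 0.67 ± 0.13 (0.00949) higher in Peyer's patch than in mesenteric capillary cells (2 of 8 members, against 1.02% of all genes), while Unc5b gave 0.48 ± 0.12 (0.0524). Mesenteric capillary array 1 had a Gja5 value of 2.00 against 3.07 on array 2. Without array 1, which leaves array 2 alone in its group, Gja5 was 0.46, with no call, between Peyer's patch and mesenteric capillary cells. It was then 1.14 between mesenteric and peripheral capillary cells. Bmx lost its call in Peyer's patch against mesenteric capillary cells without either mesenteric array. The mesenteric capillary level of Gja5 thus rests on 2 arrays that differ by more than its tissue differences between mesenteric nodes and either other tissue. Marker lists differed here as well. The capillary list mean was 3.40 to 3.69 in mesenteric, 2.70 to 3.03 in peripheral and 2.79 to 2.93 in Peyer's patch capillary cells. The high endothelial list mean was -0.20 to -0.06, 0.16 to 1.07 and -0.68 to -0.23 in the same order. Their part in the mesenteric results was not tested.

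In HEC, Efnb2 was -0.50 ± 0.11 in mesenteric against peripheral nodes (adjusted p = 0.0176, 1 of 8 members, against 1.97% of all genes lower), and Unc5b gave -0.35 ± 0.09 (0.0566). Nrp1 was -0.49 ± 0.10 in Peyer's patch against mesenteric HEC (adjusted p = 0.0178, 1 of 8, against 0.642% of all genes lower). Both calls were lost without any of 5 arrays: for Efnb2, array 1 of the MAdCAM1+/PNAd+ gate, arrays 3 and 4 of the MAdCAM1+ gate and peripheral HEC arrays 3 and 4, with values from -0.52 to -0.43, and for Nrp1, arrays 1 and 2 of the MAdCAM1+/PNAd+ gate, array 4 of the MAdCAM1+ gate and Peyer's patch HEC arrays 1 and 2, with values from -0.50 to -0.42. The HEC minus capillary gap differed between mesenteric and peripheral nodes for Sox17 alone (-0.64 ± 0.13, adjusted p = 0.0456, 1 of 8, against 0.271% of all genes), a call that 8 of 28 alternatives kept. Between Peyer's patches and mesenteric nodes it differed for Gja5 alone (-1.21 ± 0.26, adjusted p = 0.0343, 1 of 8, against 0.436% of all genes), which 14 of 28 alternatives kept.

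The mesenteric gates did not separate any member by the test: 0 of 8 passed in MAdCAM1+/PNAd+ against MAdCAM1+ HEC (0.00% of all genes were higher and 0.0201% lower). The largest differences were in Gja4, with -0.91 and -0.84 in MAdCAM1+/PNAd+ HEC against -1.48 and -1.87 in MAdCAM1+ HEC (0.80 ± 0.21, adjusted p = 0.728, unadjusted p = 0.00151), and in Nrp1, with -1.52 and -1.52 against -1.07 and -1.03 (-0.47 ± 0.13, adjusted p = 0.925, unadjusted p = 0.00227). The arrays of the 2 gates did not overlap for 4 of 8 members, with Gja4 and Unc5b higher (15.6% of all genes) and Nrp1 and Gja5 lower (12.8%) in the MAdCAM1+/PNAd+ gate.

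The order of the groups was alike across members in its upper part. Peyer's patch capillary cells had the highest mean for 6 members, and mesenteric capillary cells for Sema3g (3.62) and Nrp1 (1.09), where they overlapped with Peyer's patch capillary cells (3.60 and 1.05). The order below that was capillary cells of the other tissues, then HEC. For Bmx and Sox17 all neighbouring capillary groups were apart, while for Efnb2, Nrp1 and Gja4 all neighbouring ones overlapped. For Sox17 the lowest Peyer's patch capillary array (1.971) was barely above the highest mesenteric one (1.968), and that difference was not called (0.20 ± 0.10, adjusted p = 0.735). Such non-overlap was found for 10.4% of all genes between Peyer's patch and mesenteric capillary cells, and for 8.61% between mesenteric and peripheral ones. Among HEC groups, neighbours overlapped throughout for Sema3g, Bmx and Sox17, and for Nrp1 the mean was lowest in Peyer's patches (-1.78), with no overlap with MAdCAM1+/PNAd+ mesenteric HEC (-1.52).

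The receptors, ligands and relatives of the members moved in both directions. Of 34 measured partners and paralogs, 16 were lower (15.9% of all genes) and 4 higher (18.0%) in HEC over the mean of tissues, and 14 did not pass, with a median of -0.23. The count of higher genes is thus not above the share over all genes. The venous receptor of ephrin-B2, Ephb4, was -0.53 ± 0.06 (adjusted p = 1.02e-06). The ephrin Efna1 was -1.38 ± 0.11 and the semaphorin receptor Plxnd1 was -1.38 ± 0.08, while Nrp2, the neuropilin of veins and lymphatics, was 0.09 ± 0.05 (adjusted p = 0.186). A list of 10 measured venous genes, which holds Ephb4 and Nrp2, had the direction opposite to Ephb4 in its mean. That mean was 0.86 to 1.21 on HEC arrays and 0.02 to 0.66 on capillary arrays. The venous list shares Ackr1 with the high endothelial list, and in Peyer's patches Ackr1 was 3.69 ± 0.19 higher in HEC than in capillary cells. The mean thus holds part of the high endothelial signal, and it does not show how many venous genes went each way. The VEGF receptor Flt1 was -1.43 ± 0.07. The other SoxF genes followed Sox17 in direction, with Sox7 at -1.24 ± 0.07 and Sox18 at -0.92 ± 0.10, and Tec, the kinase that names the family of Bmx, was -1.28 ± 0.06. The connexin Gja1 was -0.25 ± 0.10 (adjusted p = 0.0565).

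Among the genes linked to Unc5b, the netrin Ntn4 was -0.46 ± 0.07 and Robo4, a receptor of endothelium that binds Unc5b, was -0.45 ± 0.06. Flrt2 gave -0.21 ± 0.09 (adjusted p = 0.0795). In the opposite direction, Flrt3, a membrane protein that binds Unc5 receptors, was 1.86 ± 0.09, Unc5c, a relative of Unc5b, was 0.75 ± 0.06, and the plexin Plxna4 was 0.59 ± 0.07. The semaphorin Sema3c was -1.86 ± 0.09 over tissues, with values by tissue of 0.06 ± 0.15 in Peyer's patches (adjusted p = 0.853), -2.78 ± 0.16 in mesenteric nodes and -2.87 ± 0.14 in peripheral nodes. In capillary cells Sema3c was -2.61 ± 0.15 in Peyer's patches against peripheral nodes (adjusted p = 9.61e-09), the direction opposite to Gja5, Bmx and Sox17. Of the 34 genes, 1 was higher (2.40% of all genes) and 2 were lower (2.24%) in that capillary comparison. The 2 became 1 without peripheral capillary array 1 or 2 or Peyer's patch capillary array 1 or 2.

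Of 39 other measured genes of the arterial and Notch programme, 34 were lower (15.9% of all genes) and 1 was higher (18.0%) in HEC over the mean of tissues. The median was -1.05, and 4 did not pass (Eln, Mecom, Eng and Foxc1). This list was chosen with earlier results of these data known, so its direction is no independent evidence about the members. The lowest were the chemokine Cxcl12 (-3.84 ± 0.08), the Notch target Hey1 (-3.68 ± 0.11), the lipoxygenase Alox12 (-3.26 ± 0.10), the phosphatase Alpl (-3.20 ± 0.14) and the Notch ligand Jag2 (-2.83 ± 0.07). The exception was Clu, which encodes the secreted chaperone clusterin, at 1.85 ± 0.08. In capillary cells, 14 of 39 were higher (2.40% of all genes) and 0 lower (2.24%) in Peyer's patches than in peripheral nodes, with a median of 0.40. Without peripheral capillary array 1 or peripheral HEC array 1, 1 was lower. Chosen after their values were seen, the largest were the vasoconstrictor peptide Edn1 (1.84 ± 0.27) and the growth factor Vegfc (1.59 ± 0.17). Cxcl12 was 0.56 ± 0.14 (adjusted p = 0.0213) and Alox12 0.79 ± 0.17 (0.0108), while Hey1 (0.50 ± 0.19, 0.202), Alpl (0.58 ± 0.25, 0.292) and Jag2 (-0.20 ± 0.12, 0.595) did not pass. In HEC, 4 of 39 were higher (2.16% of all genes) and 7 lower (4.49%) in Peyer's patches. The 7 became 3 without peripheral HEC array 2 or 4 or Peyer's patch HEC array 2, and 2 after quantile normalization was applied again. The HEC minus capillary difference was more negative in Peyer's patches than in peripheral nodes for 12 (2.37% of all genes) and less negative for 2 (1.69%). The 12 became 7 without peripheral capillary array 1 or Peyer's patch HEC array 2, and the 2 became 1 without any of 12 arrays. The 12 also became fewer without peripheral capillary arrays 1 and 2, which leaves 1 array in that group.

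**Figure D5:**
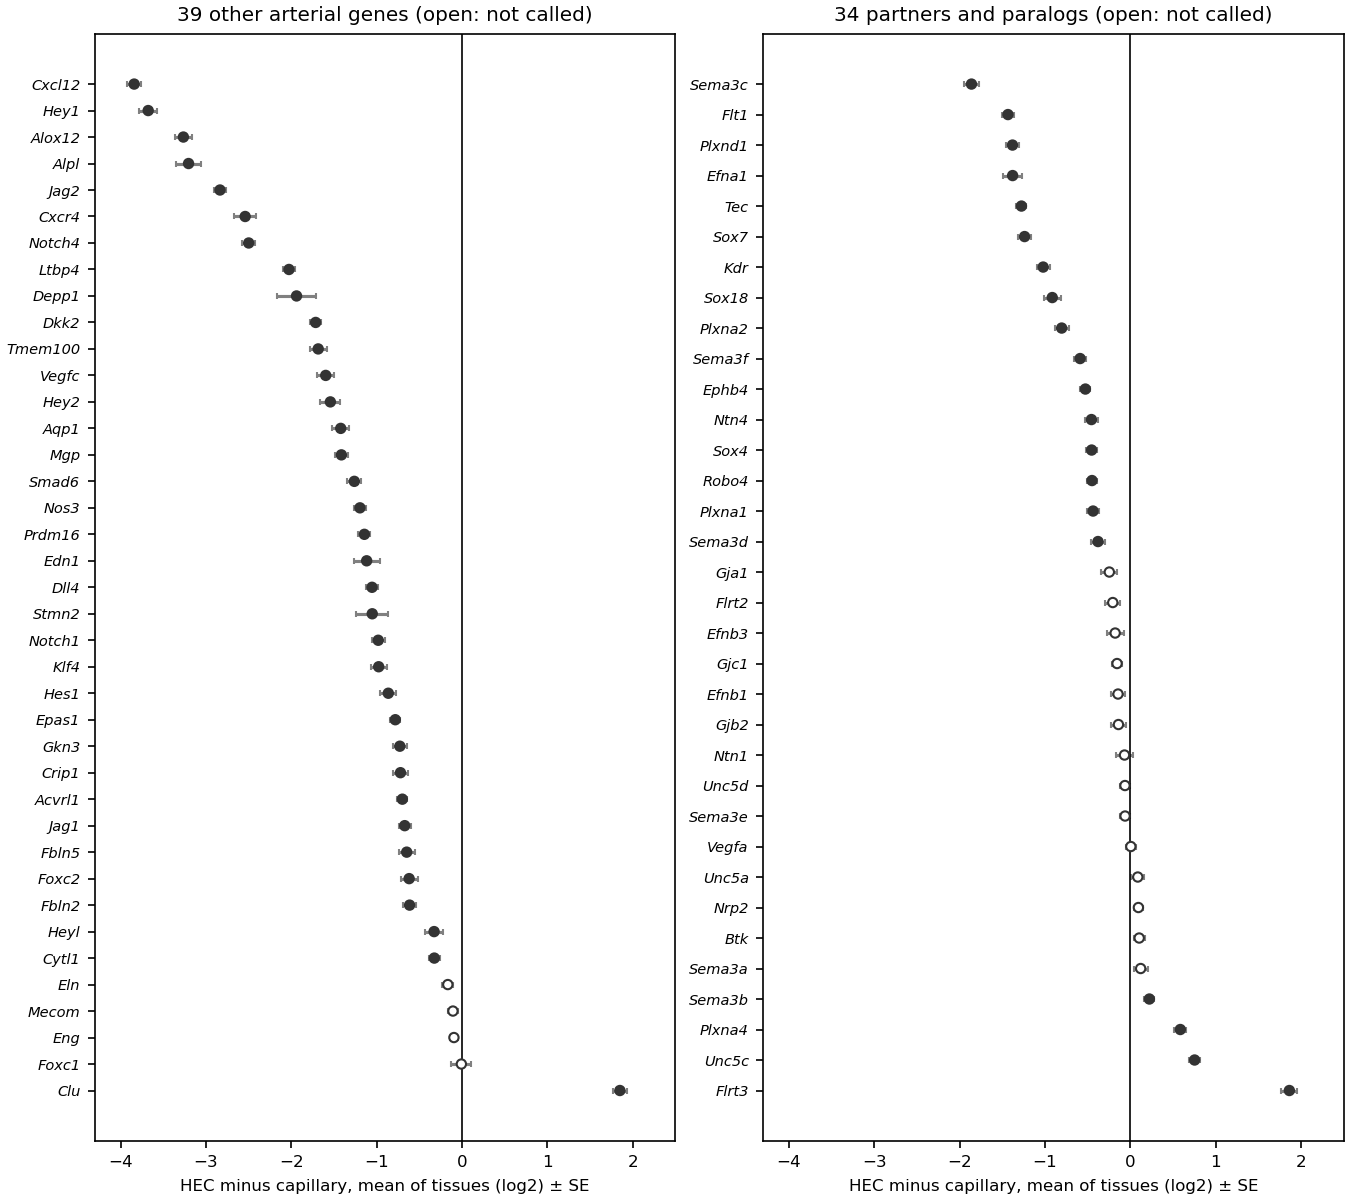
HEC minus capillary difference over the mean of tissues on the log2 scale (horizontal axis), with its SE, for 39 other arterial genes (left) and 34 partners and paralogs of the members (right). Filled points had an adjusted p under 0.05: 34 of the arterial genes lie to the left of 0, whereas the partners spread on both sides.

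The genes whose pattern was most like that of each member were found by the root mean square difference between 7 group means after each gene was centred, over 18338 genes that are no member. This is a description of 7 means that share arrays, with no test. For Efnb2 the nearest were Fn1, which encodes fibronectin (0.16 log2), and Clic5 (0.23). For Sema3g they were Hey1 (0.12) and Fn1 (0.22), and for Nrp1 Thbd, the thrombomodulin gene (0.15), and Cxcr4, the receptor of Cxcl12 (0.19). The 2 nearest to Unc5b were the laminin gene Lama3 (0.17) and Enpp3 (0.21), and Lama3 was also nearest to Gja4 (0.22), before Podxl (0.29). Hcar1 and Esm1 were equally near to Gja5 (0.22 each). Syne2 (0.08) and Ackr3 (0.09) were nearest to Bmx, and Fam20a and Slc26a10 (0.12 each) to Sox17. Within the members, Bmx and Sox17 were nearest to each other (0.13), as were Efnb2 and Sema3g (0.25) and Gja4 and Unc5b (0.31), and Nrp1 was farthest from the rest, at 0.46 from Unc5b. In HEC of Peyer's patches minus peripheral nodes, Thbd was -0.83 ± 0.15 (adjusted p = 0.00244), while Cxcr4, at -0.58 ± 0.21, did not pass (0.117). In capillary cells Hcar1 was 1.91 ± 0.09 (adjusted p = 4.04e-10) and Ackr3 1.33 ± 0.14 (1.35e-05). The choice by pattern fixes these values in part.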

How the data were processed

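Total RNA of sorted cells was amplified, labelled and hybridised to 19 whole-transcript arrays, per the labels. The authors deposited log2 values that had been summarised by RMA in Partek (versions not given), per the submitters' processing notes; RMA compresses large folds. The deposited log2 values run from -4.092 to 6.128 and hold an exact 0 in 54.47% of probe sets, so each probe set was centred on a baseline that the sources used here do not state. Of 28856 probe sets, 21789 had 1 symbol, 1621 several and 5446 none here; 21698 were matched by Entrez identifier to RefSeq GRCm38.p6. Probe sets of a gene were averaged, which gave 19938 genes. limma 3.58.1 (R 4.3.3) fitted 1 mean for each of 7 groups, with 14 contrasts, two-sided tests and Benjamini-Hochberg adjustment over all genes. In a simulation of the Peyer's patch HEC against capillary comparison over 19938 genes, 94% of 100 genes changed by -1 and 100% of 100 changed by -2 (log2) were called, with 7 unchanged genes. The simulated noise was independent between genes, without shifts shared by the genes of an array. The recovery of differences between tissues was not simulated. The named genes were all 8 members, the called genes of each list with the 5 lowest and 3 highest differences, fixed receptors, ligands and paralogs, the 2 nearest genes in pattern, and the 2 largest markers of a list that moved. The members and lists were chosen with earlier results of these data known. Samples that share a replicate number did not deviate together in every pair, so the numbers were not taken as pairs.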

Additional observations from a re-analysis of the deposited data

Results flagged for a closer look

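The HEC minus capillary difference differed between tissues, by a test of the difference itself, for the following genes, which are those of the members and of the named list genes that passed. In Peyer's patches minus peripheral nodes it was -1.03 for Gja4, -1.66 for Gja5, -0.73 for Efnb2, -1.20 for Bmx, -0.85 for Sox17, -0.66 for Nrp1 and -0.75 for Unc5b. Among the named partners and other arterial genes it was 2.93 for Sema3c, -1.09 for Plxna4, -0.52 for Nrp2 and -0.88 for Cxcl12 in the same comparison. Over the whole lists, 3 of 34 partners and 12 of 39 other arterial genes had a more negative difference in Peyer's patches (2.37% of all genes), and 3 and 2 a less negative one (1.69%). The HEC minus capillary difference of Sema3c was 0.06 ± 0.15 in Peyer's patches and -2.87 ± 0.14 in peripheral nodes, that of Plxna4 was 0.04 ± 0.12 in Peyer's patches and 1.13 ± 0.11 in peripheral nodes, and that of Nrp2 was -0.18 ± 0.09 and 0.34 ± 0.08. Plxna4 and Nrp2 differed between the tissues in HEC (-0.94 ± 0.11 and -0.36 ± 0.08), as Nrp1 did, and Cxcl12 in capillary cells (0.56 ± 0.14). In Peyer's patches minus mesenteric nodes it was -1.21 for Gja5, and in mesenteric minus peripheral nodes -0.64 for Sox17. No member had an array far from the others among the 4 peripheral HEC arrays, the one group large enough for such a comparison.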

How the results depend on the processing

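Of 112 member results, 32 compared HEC with capillary cells, and these kept direction and call under 28 alternatives (896 of 896). That count includes settings that could not move a member's difference, as stated above. The tissue comparisons depended more on the settings, and no called value changed sign. Counts of members follow. Those without peripheral capillary arrays 1 and 2 come from a fit with 1 array in that group, whose spread is taken from the other groups. Leaving out 1 mesenteric array likewise leaves 1 array in its group. The gap wider in Peyer's patches than in peripheral nodes (7 called) had 3 after quantile normalization again and 4 without peripheral capillary arrays 1 and 2. The gap wider in mesenteric than in peripheral nodes (1) had 0 under the replicate block, quantile normalization, a fit of only the compared groups, the filter on range or without those 2 arrays, and 0 to 2 with 1 array left out. The gap wider in Peyer's patches than in mesenteric nodes (1) had 0 under the replicate block, quantile normalization, only the compared groups or without those 2 arrays, 4 under array weights, and 0 to 2 with 1 array left out. Lower in HEC of Peyer's patches than of peripheral nodes (2) had 1 after quantile normalization and 4 under array weights. Lower in HEC of mesenteric than of peripheral nodes (1) had 2 after centring on the array median, under array weights or without those 2 arrays, and 0 to 2 with 1 array left out. In HEC of Peyer's patches against mesenteric nodes, lower (1) had 0 under the replicate block, quantile normalization or only the compared groups, 2 under array weights and 0 to 1 with 1 array left out, and higher (0) had 1 under array weights. Higher in capillary cells of Peyer's patches than of peripheral nodes (5) had 3 without those 2 arrays. Higher in mesenteric than in peripheral capillary cells (1) had 0 with only the compared groups or without those 2 arrays and 0 to 2 with 1 array left out. Higher in Peyer's patch than in mesenteric capillary cells (2) had 0 with only the compared groups and 0 to 3 with 1 array left out. The fits with only the compared groups or without arrays hold fewer arrays, and without some arrays the differences moved as well, as for Gja5 above. Why the counts were lower there was not tested. The replicate block kept 109 of 112 member results and ended 3 calls: Gja5 in the Peyer's patch minus mesenteric gap (adjusted p = 0.0503), Sox17 in the mesenteric minus peripheral gap (0.106) and Nrp1 in Peyer's patch against mesenteric HEC (0.0538). The estimate of array weights stopped before it converged, and under it the genes with a less negative gap in Peyer's patches than in peripheral nodes were 3642 against 336, so its counts are not comparable. Counts over all genes in that comparison ran from 122 to 3642 less negative and from 235 to 2801 more negative over the alternatives that keep all arrays or leave out those 2, and from 198 to 1535 (336) and 306 to 1386 (472) with 1 array left out. The highest of these counts came without Peyer's patch HEC array 3, and without it 2744 genes were higher (431) and 2556 lower (895) in HEC of Peyer's patches against peripheral nodes. Other arterial genes with a more negative difference were 20 and those higher in HEC of Peyer's patches 14 under array weights. The filter on range (0.771 log2, 8720 genes left) stood in for a filter on dim probes. Another background correction and a slide or scan block were not run, since neither scanner values nor slides were used here.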
